A study of Homo sapiens with 9 samples.

Results

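Cystatins are protein inhibitors of papain-like cysteine proteases, and cathepsins are the proteases of lysosomes, most of them of that papain-like kind. The genes described here are 4 cystatins (CST7, CST3, CST6 and CSTB) and 6 cathepsins (CTSB, CTSC, CTSD, CTSL, CTSV and CTSZ), 10 of the 56505 gene symbols counted. They were chosen by name after the expression differences between the same libraries were known, so their levels, fold changes and calls are a description and support no test. All 10 were found, had counts and passed the filter on low counts.

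RNA sequencing covered JAG1 knockout clone 1, JAG1 knockout clone 2 and wild-type cells of MDA-MB-231-D3H2LN, a human mammary tumour line derived from MDA-MB-231, with 3 libraries each. Per the labels, Cas9 protein with guide RNAs against a pair of places in one JAG1 exon was transfected, and each homozygous knockout clone grew out of a single cell, so each clone is 1 line. The medium of all groups was high-glucose DMEM with 10% FBS. JAG1 encodes a cell-surface ligand of Notch receptors, and the comparisons ask which transcripts differ where it was edited. Nothing in the labels says that replicates were separate cultures, so p-values cover the variation of these libraries alone, and that variation may be technical.

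Libraries held 16890890 to 22456164 counts, and the 10 genes took 0.0765 to 0.115% of them. JAG1 counts were 2130, 1699 and 1657 in clone 1, 1230, 1406 and 1190 in clone 2, and 5069, 3803 and 3592 in wild type, so both clones lay below every wild-type library. By edgeR's quasi-likelihood test over 16921 genes its log2 fold change was -1.05 in clone 1 (adjusted p = 0.00312) and -1.55 in clone 2 (adjusted p = 0.00013), each with an SE of 0.18. The carcinoma markers VIM, CD44, KRT8 and KRT18 were abundant, while CDH1 and ESR1 were under 1 CPM in every group, where CPM is a gene's count relative to its TMM-scaled library size. Leukocyte markers, listed because leukocytes use CST7, summed to 6.96 to 10.7 CPM in clone 1, 3.04 to 7.24 in clone 2 and 5.43 to 8.65 in wild type. CD3E and CD2 were at 0 in all 9 libraries, and 12 of the 14 leukocyte markers in clone 1, 13 in clone 2 and 12 in wild type averaged under 1 CPM. The 4 endothelial markers summed to 4.47 to 6.46 CPM in clone 1, 3.65 to 4.12 in clone 2 and 4.23 to 5.04 in wild type.

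Cathepsins are made as inactive precursors, carried to lysosomes by mannose-6-phosphate receptors and activated there by the acid pH that the vacuolar proton pump keeps. Tumour cells can also secrete them, and secreted cathepsins can cut matrix proteins. Cystatin C (CST3) is a general secreted inhibitor, cystatin F (CST7) is a lysosomal inhibitor known from immune cells, cystatin M/E (CST6) is secreted and also blocks legumain, and cystatin B (CSTB, stefin B) stays in the cytosol and nucleus. Cathepsin D (CTSD) is an aspartic protease, which cystatins do not block.

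In clone 1 the transcripts of 4 members were called lower than in wild type (CST7, CST3, CTSL and CTSZ) and none was called higher. CST7 passed the filter on low counts through clone 2 and wild type alone, so its call in clone 1 only describes its lack of counts. In clone 2 CST7 and CTSL were called lower and none higher in the fit without pairs. With the replicate number as a block, CTSZ was also called higher in clone 2. That fit held all 9 libraries, so it joined clone 1 libraries to the others by number as well. "Called" means an adjusted p under 0.05 in a fit of all 16921 genes tested. Across all genes, 4.10% were called lower and 1.41% higher in clone 1, and 2.75% lower and 3.21% higher in clone 2. With the block, 1528 genes were called higher and 1171 lower in clone 2. A correction for GC content and length moved the split of all calls to 329 higher and 548 lower in clone 1, beside 239 and 694, and to 878 higher and 466 lower in clone 2, beside 543 and 465. Because the members were picked with these contrasts known, nothing is read from the difference. The median log2 fold change of the 10 members was -0.44 in clone 1 and 0.08 in clone 2, beside -0.02 and 0.00 over all genes tested. Between the clones, 6 members were called higher in clone 2 than in clone 1 and none lower, with a median of 0.50 beside -0.01 over all genes, where 19.8% of genes were called higher and 14.1% lower.

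**Figure D1:**
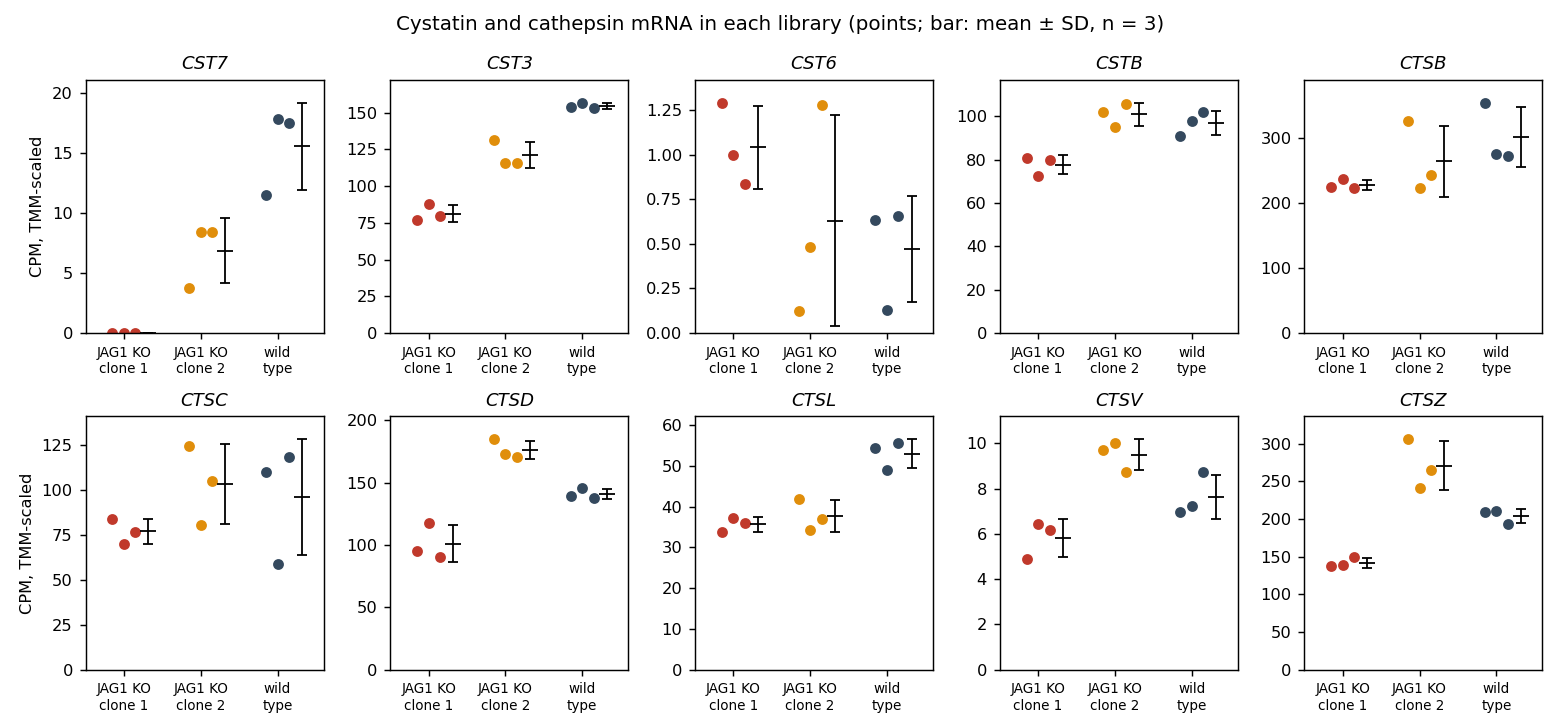
CPM of each member in every library of JAG1 knockout clone 1, JAG1 knockout clone 2 and wild type, with each axis starting at 0. Points are libraries and the bar beside them is the mean ± SD of 3. CST7 is at 0 in all 3 clone 1 libraries, and CTSD and CTSZ are lower in clone 1 and higher in clone 2 than in any wild-type library.

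Libraries of clone 1 lay wholly below those of wild type for 8 members and wholly above for CST6, while CTSC overlapped. Over all genes tested, 16.5% lay wholly below and 13.1% wholly above in that comparison. Libraries of clone 2 lay wholly below wild type for CST7, CST3 and CTSL and wholly above for CTSD and CTSZ, where 11.7% of all genes lay below and 14.2% above. Clone 2 lay wholly above clone 1 for CST7, CST3, CSTB, CTSD, CTSV and CTSZ, as did 25.8% of all genes.

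CST7, which encodes cystatin F, lies on chromosome 20 (GRCh38, 24949230 to 24959928, plus strand), as does JAG1, 14.3 Mb away. No CST7 read was counted in any clone 1 library. The counts were 61, 174 and 178 in clone 2 and 236, 424 and 348 in wild type. Expression was 3.77, 8.43 and 8.45 CPM in clone 2 and 11.5, 17.9 and 17.5 CPM in wild type, so every library of clone 2 stood below every library of wild type. The mean was 6.88 ± 2.69 CPM in clone 2 and 15.6 ± 3.62 CPM in wild type (SD, n = 3 each). With a floor of 3 counts over the group, which is 0.0515 CPM, clone 1 was at least 305.5-fold lower than wild type and at least 138.6-fold lower than clone 2. Such bounds cover the counting error of clone 1 only. They take the pooled level of the other group as exact, and PCR copies of a molecule are counted as separate reads. In clone 2 CST7 fell by 1.18 log2 units (SE 0.31). That call held in 4 of 9 fits that left out a library and ended without clone 1 replicate 2, clone 2 replicate 1 or 3, or wild-type replicate 2 or 3 (log2 fold change -1.36 to -0.87), and it also ended with a correction for GC content and length (-1.06) and in a fit of the 6 libraries compared. In bulk RNA, fewer cells that express a gene and less RNA per cell cannot be told apart.

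CST3, which encodes cystatin C, lies 1.31 Mb from CST7 on the same chromosome (23626706 to 23638473, minus strand). It had 76.7, 87.5 and 79.7 CPM in clone 1, 131, 116 and 116 CPM in clone 2, and 154, 157 and 153 CPM in wild type. All 3 groups were separate, with clone 2 between the others. The means were 81.3 ± 5.56 CPM in clone 1, 121 ± 9.01 CPM in clone 2 and 154 ± 1.99 CPM in wild type (SD, n = 3 each). CST3 fell by 0.93 log2 units in clone 1 (SE 0.13), a call kept in all 9 fits that left out a library (-0.97 to -0.89). The log2 fold change in clone 2 was -0.35 (SE 0.13), which was not called by edgeR but was called by DESeq2. Clone 2 was 0.57 higher than clone 1 on that scale (SE 0.13), also called in all 9 such fits.

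CSTB, which encodes cystatin B, lies on chromosome 21 (43772511 to 43776445, minus strand). It had 80.8, 72.6 and 79.9 CPM in clone 1, 102, 95.0 and 106 CPM in clone 2, and 91.2, 97.9 and 102 CPM in wild type. Clone 1 lay below both other groups, which overlapped. The log2 fold change was -0.32 in clone 1 (SE 0.13) and 0.06 in clone 2 (SE 0.13), neither called. The log2 difference of 0.38 between clone 2 and clone 1 (SE 0.13) was called, but it held in only 2 of the 9 fits that left out a library (0.30 to 0.41) and ended without clone 1 replicate 1, 2 or 3, clone 2 replicate 2 or 3, or wild-type replicate 2 or 3, with the GC and length correction (0.33), without the filter on low counts and in the fit of the 6 libraries compared.

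CST6, which encodes cystatin M/E (chromosome 11, 66011841 to 66013505, plus strand), was close to the limit of detection. Its counts were 25, 21 and 15 in clone 1, 2, 10 and 27 in clone 2, and 13, 3 and 13 in wild type. It thus reached the filter's count of 10 in all 3 libraries of clone 1 alone. Levels were 1.29, 0.999 and 0.835 CPM in clone 1, 0.124, 0.484 and 1.28 CPM in clone 2, and 0.631, 0.127 and 0.654 CPM in wild type. Clone 2 spanned the range of both other groups. The log2 fold changes of 1.16 in clone 1 (SE 0.76) and of 0.46 in clone 2 (SE 0.77) were not called, and the sign in clone 2 depended on the libraries kept (-0.56 to 0.94).

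**Figure D2:**
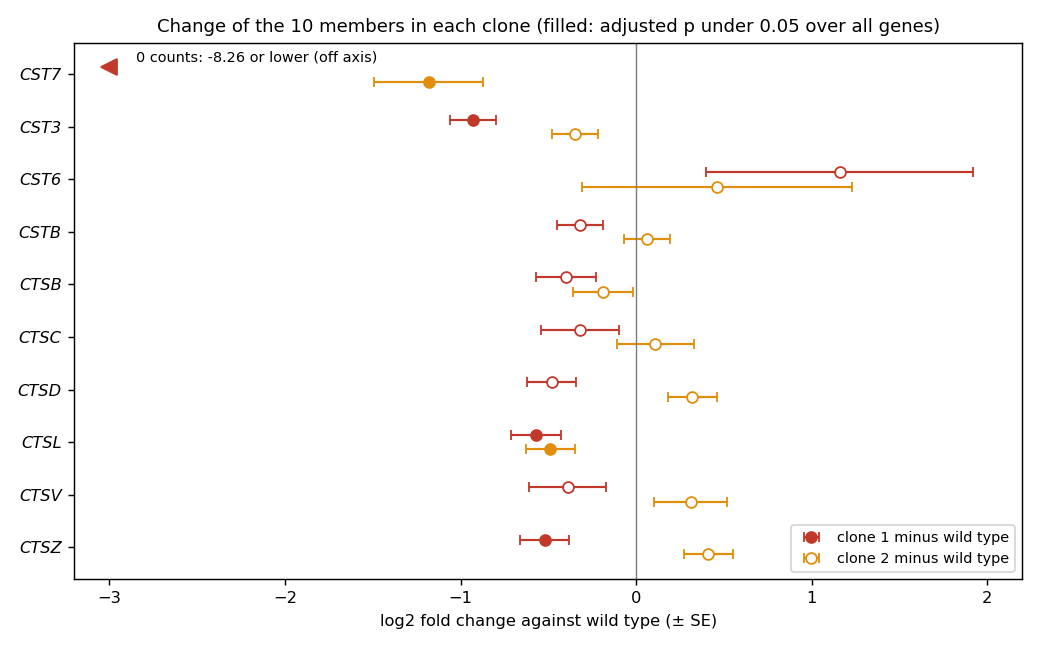
Log2 fold change against wild type for the 10 members in clone 1 and clone 2, with bars of 1 SE and filled points for an adjusted p under 0.05 over all genes. CST7 in clone 1 has 0 counts and is drawn as a bound of -8.26 beyond the axis. CTSL lies to the left of 0 in both clones, while CTSD, CTSV and CTSZ lie to the left in clone 1 and to the right in clone 2.

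Of the 6 cathepsins, CTSL alone was called lower in both clones. CTSL encodes cathepsin L, a lysosomal endopeptidase (chromosome 9, 87725519 to 87731393, plus strand). It had 33.8, 37.3 and 36.1 CPM in clone 1, 41.8, 34.2 and 37.0 CPM in clone 2, and 54.3, 49.0 and 55.7 CPM in wild type. The clones overlapped each other and both lay below wild type. CTSL fell by 0.57 in clone 1 (SE 0.14) and by 0.49 in clone 2 (SE 0.14) on the log2 scale, and both folds rest on the same 3 wild-type libraries. The call in clone 1 held in 4 of 9 fits that left out a library (-0.60 to -0.52) and ended without clone 1 replicate 1, 2 or 3 or wild-type replicate 2 or 3. The call in clone 2 held only in the fit without clone 2 replicate 1 (-0.57 to -0.45) and ended in the fit of the 6 libraries compared.

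CTSV, which encodes cathepsin V, the closest relative of cathepsin L, is also on chromosome 9 (97029679 to 97039643, minus strand). It had 4.87, 6.42 and 6.18 CPM in clone 1, 9.71, 10.0 and 8.73 CPM in clone 2, and 6.95, 7.24 and 8.75 CPM in wild type. Clone 1 lay below wild type, and clone 2 reached down to the highest wild-type library. The log2 fold change was -0.39 in clone 1 (SE 0.22) and 0.31 in clone 2 (SE 0.21), neither called. Clone 2 exceeded clone 1 by 0.70 (SE 0.22), a call that ended without clone 1 replicate 1 or clone 2 replicate 2 (0.60 to 0.75) and without the filter on low counts. Per length, as RPKM (CPM per kilobase of exon), the CTSL to CTSV ratio was 13.8, 11.6 and 11.6 in clone 1, 8.55, 6.78 and 8.42 in clone 2, and 15.5, 13.5 and 12.6 in wild type, so the ratio in clone 2 lay below all other libraries.

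CTSZ encodes cathepsin Z (also called X), a lysosomal carboxypeptidase, and lies on chromosome 20 (58995185 to 59007247, minus strand), 34.0 Mb from CST7. It had 138, 139 and 149 CPM in clone 1, 306, 242 and 265 CPM in clone 2, and 209, 210 and 194 CPM in wild type. The 3 groups did not overlap, with clone 1 lowest and clone 2 highest. CTSZ fell by 0.52 log2 units in clone 1 (SE 0.14), a call kept in 3 of 9 fits that left out a library (-0.56 to -0.49) and lost without clone 1 replicate 1, 2 or 3 or wild-type replicate 1, 2 or 3. Its log2 fold change of 0.41 in clone 2 (SE 0.14) was not called. With the replicate number as a block over all 9 libraries, clone 1 included, it was 0.40 and called higher. It was also called with DESeq2 and with the GC and length correction (0.48). The difference of 0.93 between clone 2 and clone 1 (SE 0.14) was called in all 9 fits (0.83 to 0.97).

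CTSD encodes cathepsin D (chromosome 11, 1752752 to 1764573, minus strand). It had 95.1, 118 and 90.1 CPM in clone 1, 185, 173 and 171 CPM in clone 2, and 140, 145 and 137 CPM in wild type. As for CTSZ, the groups were separate and wild type stood between the clones. The log2 fold change was -0.48 in clone 1 (SE 0.14) and 0.32 in clone 2 (SE 0.14). Neither was called in the fit of 9 libraries without the block. Clone 1 was called lower by DESeq2, by limma-voom and without clone 2 replicate 1 (-0.59 to -0.41 over the fits that left out a library). It was also called lower with the replicate block, alone and with the GC and length correction. Clone 2 was called higher only with the block and that correction together. Clone 2 exceeded clone 1 by 0.80 (SE 0.14), called in all 9 fits that left out a library (0.73 to 0.90). CTSD shares 493 exonic bases with AC068580.6 on the other strand and 1304 with RP11-295K3.1 on its own strand, which had 151 and 51 counts in all against 25137 for CTSD. The strand setting of the counting is not given in the sources used here.

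Some markers of the carcinoma line followed the order of CTSD and CTSZ. VIM averaged 844.8 CPM in clone 1, 1965.8 in clone 2 and 1218.3 in wild type, KRT8 254.8, 570.1 and 413.5 in that order, and KRT18 137.3, 328.2 and 219.0. For all 3 markers every clone 1 library lay below wild type and every clone 2 library above it. By edgeR, KRT8 (log2 fold change -0.70, adjusted p = 0.0209) and KRT18 (-0.67, adjusted p = 0.0396) were called lower in clone 1, and VIM was called higher in clone 2 (0.69, adjusted p = 0.0491). Those calls held in 5 of 9 fits that left out a library for KRT8, 5 for KRT18 and 3 for VIM. With the replicate block KRT8 (0.47, adjusted p = 0.0356) and KRT18 (0.58, adjusted p = 0.0122) were called higher in clone 2 as well. Clone 2 exceeded clone 1 by 1.22 log2 units for VIM, 1.16 for KRT8 and 1.26 for KRT18, called under all 17 alternative settings. EPCAM ran the other way, with 24.2 CPM in clone 1, 12.3 in clone 2 and 17.9 in wild type, and was lower in clone 2 than in clone 1 (-0.98, adjusted p = 0.000452, edgeR). CD44 and ESR1 overlapped between all groups, and the list of 8 markers summed to 2194.9 to 2811.2 CPM in clone 1, 3616.1 to 4577.1 in clone 2 and 2522.4 to 3486.4 in wild type. The part of these differences in the CTSD and CTSZ results was not tested.

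CTSD and CTSZ were the 2 members lower in clone 1 and higher in clone 2 than every wild-type library, and CTSL was lower in both, so the bases before their start sites are shown (RefSeq, GRCh38.p14, 5′ to 3′ on the gene's strand, 250 bases). Capitals mark matches on either strand to CACGTG, the E-box core bound by TFEB and related factors that control lysosomal genes, and to GGGCGG, the GC box bound by SP factors.
CTSD, chr11:1763928-1764177, minus strand: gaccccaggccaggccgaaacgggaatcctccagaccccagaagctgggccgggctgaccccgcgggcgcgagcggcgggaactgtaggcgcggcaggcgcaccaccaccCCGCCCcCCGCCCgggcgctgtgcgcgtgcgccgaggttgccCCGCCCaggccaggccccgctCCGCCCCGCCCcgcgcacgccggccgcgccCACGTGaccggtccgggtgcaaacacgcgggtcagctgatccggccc
CTSZ, chr20:59007255-59007504, minus strand: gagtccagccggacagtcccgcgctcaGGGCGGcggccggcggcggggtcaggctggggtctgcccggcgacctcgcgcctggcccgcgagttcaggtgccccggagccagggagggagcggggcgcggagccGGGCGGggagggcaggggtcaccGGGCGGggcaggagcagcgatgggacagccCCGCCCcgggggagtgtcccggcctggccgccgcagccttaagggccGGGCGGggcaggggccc
CTSL, chr9:87725869-87726118, plus strand: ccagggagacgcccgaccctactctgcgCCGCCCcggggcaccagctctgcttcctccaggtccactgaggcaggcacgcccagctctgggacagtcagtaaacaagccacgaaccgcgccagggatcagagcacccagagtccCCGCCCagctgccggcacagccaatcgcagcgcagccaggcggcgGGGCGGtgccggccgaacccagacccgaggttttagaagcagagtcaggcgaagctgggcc

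Sequences of this window were matched for 6 of the 10 members (CST3, CTSC, CTSD, CTSL, CTSV and CTSZ). CACGTG was found in 1 of them, CTSD, starting 47 bases before the start site, and in 6.34% of 35116 promoters of the same length. GGGCGG or its reverse complement was in all 6 and in 42.6% of all promoters, with 5 matches in CTSD, 5 in CTSZ, 3 in CTSL, 2 in CTSV, 1 in CST3 and 1 in CTSC. Some of the 5 matches in CTSD overlap each other. GTGGGAA, the core motif of RBPJ, the DNA-binding partner of Notch, was in 0 of 6 and in 5.43% of all promoters, and TATAAA was in 0 of 6 and in 10.7%. The GC content was 81.2% for CTSZ, higher than in 97.7% of all promoters, 79.2% for CTSD (higher than in 95.8%) and 69.2% for CTSL (higher than in 77.5%). A match is a description of these letters, and no match says only that they are not in this window.

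CTSB encodes cathepsin B, an endopeptidase that also removes dipeptides from the C-terminus of its substrates (chromosome 8, 11842524 to 11869448, minus strand). It had the highest CPM of the members in wild type, with 224, 236 and 222 CPM in clone 1, 325, 223 and 242 CPM in clone 2, and 354, 275 and 273 CPM in wild type. Clone 1 lay below wild type, and clone 2 overlapped both. Replicate 1 was the highest library in clone 2 and in wild type. The log2 fold changes of -0.40 in clone 1 (SE 0.17) and of -0.19 in clone 2 (SE 0.17) were not called, nor was the difference of 0.21 between the clones (SE 0.17), under any of the 17 alternative settings.

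CTSC encodes cathepsin C, or dipeptidyl peptidase 1, which activates the serine proteases of leukocyte granules and is a target of cystatin F (chromosome 11, 88293592 to 88337787, minus strand). It had 84.2, 70.0 and 77.0 CPM in clone 1, 125, 80.5 and 105 CPM in clone 2, and 110, 59.1 and 119 CPM in wild type. All 3 pairs of groups overlapped, and wild-type replicate 2 was the lowest of the 9 libraries. The log2 fold change was -0.32 in clone 1 (SE 0.22) and 0.11 in clone 2 (SE 0.22), neither called, and the sign in clone 2 depended on the libraries kept (-0.17 to 0.26). Of 10 leukocyte proteases that cathepsin C activates, 6 had any count and 1 had enough counts to be tested, which was called in neither clone by edgeR or DESeq2 and had no unadjusted p under 0.05.

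Levels of different genes were compared per length. In RPKM, CTSZ was the highest of the 10 members in all groups, with means of 69.7 in clone 1, 133 in clone 2 and 100.3 in wild type. CTSD was second, with 32.3 in clone 1, 56.4 in clone 2 and 45.0 in wild type. In wild type CST3 (41.8), CTSB (40.4), CSTB (24.6), CTSL (22.4), CST7 (16.8), CTSC (8.40), CTSV (1.63) and CST6 (0.62) followed in order of mean RPKM, with overlap between CST3 and CTSB and between CSTB and CTSL. In clone 2 the mean RPKM ran in the order CTSB (35.5), CST3 (32.7), CSTB (25.6), CTSL (15.9), CTSC (9.06), CST7 (7.40), CTSV (2.02) and CST6 (0.83) after CTSD, and CTSB overlapped CST3 and CTSC overlapped CST7. In clone 1 the order after CTSD was CTSB (30.6), CST3 (22.0), CSTB (19.8), CTSL (15.1), CTSC (6.75), CST6 (1.37), CTSV (1.24) and CST7 (0), and CTSD overlapped CTSB and CST6 overlapped CTSV.

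The summed RPKM of the 4 cystatins was 43.0, 43.4 and 43.0 in clone 1, 65.7, 65.2 and 68.9 in clone 2, and 78.0, 86.7 and 86.9 in wild type. That of the 6 cathepsins was 151, 161 and 155 in clone 1, 284, 228 and 244 in clone 2, and 229, 214 and 211 in wild type. Cystatin sums were therefore lower in each clone than in wild type without overlap, while cathepsin sums were lower in clone 1 and overlapped wild type in clone 2. The ratio of the cathepsin to the cystatin sum was 3.51, 3.71 and 3.61 in clone 1, 4.31, 3.49 and 3.54 in clone 2, and 2.94, 2.47 and 2.43 in wild type. Every knockout library had a higher ratio than every wild-type library, in mRNA and over genes chosen with these differences known. CST3 made up 45.4 to 54.5% of the cystatin sum across the 9 libraries. From wild type to clone 1, mean RPKM went from 41.8 to 22.0 for CST3 and from 16.8 to 0 for CST7, both on chromosome 20 and 1.31 Mb apart. It went from 24.6 to 19.8 for CSTB and from 0.62 to 1.37 for CST6. The higher ratio in clone 1 thus leans on CST3 and CST7, and a ratio without them was not worked out. The cathepsin sum includes CTSD, which cystatins do not block.

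**Figure D3:**
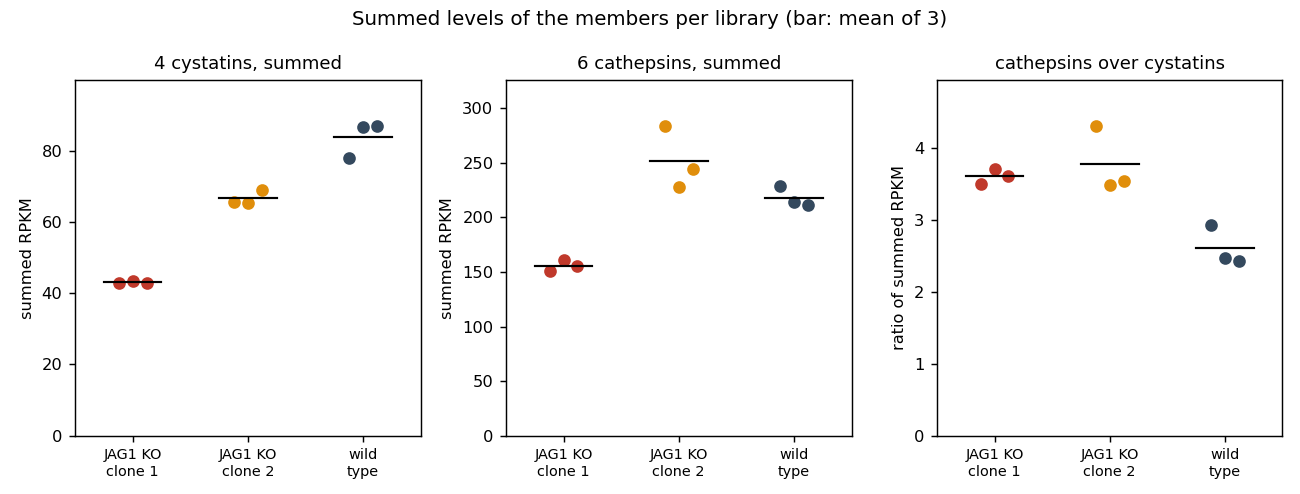
Summed RPKM of the 4 cystatins, summed RPKM of the 6 cathepsins and their ratio in each library, with the mean of 3 as a bar, for JAG1 knockout clone 1, JAG1 knockout clone 2 and wild type. The ratio is 3.49 to 4.31 in the 6 knockout libraries and 2.43 to 2.94 in wild type.

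The 10 members did not all sit among genes that moved. Within 2.5 Mb on each side, the 23 other tested genes around CST7 had a median log2 fold change of -0.85 in clone 1 and -0.20 in clone 2, and the 27 around CST3 had -0.64 in clone 1 and -0.16 in clone 2, in windows that overlap. Around CTSZ the median of 26 genes was -0.20 in clone 1 and 0.05 in clone 2, around CTSD that of 83 genes was 0.04 in clone 1 and 0.01 in clone 2, and around CTSL that of 20 genes was 0.08 in clone 1 and -0.15 in clone 2. The windows were chosen after the values were seen and are given without a test.

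Between the end of CST3 and the end of CST7, over 1.32 Mb, the 6 genes with at least 10 counts in all were the salivary-type cystatins CST4, CST1 and CST2, the cystatin D gene CST5, the synapse gene SYNDIG1 and CST7. All 6 had 0 counts in clone 1, and together they had 543 counts in clone 2 and 1158 in wild type. To the right of CST7, within 2 Mb, 12 genes were tested. Of these, 7 were called lower in clone 1 and none higher, and none was called in clone 2, with medians of -1.14 in clone 1 and -0.33 in clone 2. Over all genes tested, 4.10% were called lower and 1.41% higher in clone 1, and 2.75% lower and 3.21% higher in clone 2. One more gene there was at 0 in clone 1, NCOR1P1, a pseudogene 1154.2 kb from CST7 with 7 counts in clone 2 and 3 in wild type, too few to be tested. To the left of CST3, within 2 Mb of CST7, 6 genes were tested and none was called in either clone, with medians of -0.02 in clone 1 and -0.08 in clone 2. Counts of RNA do not measure the DNA of this stretch, and its copy number was not tested.

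**Figure D4:**
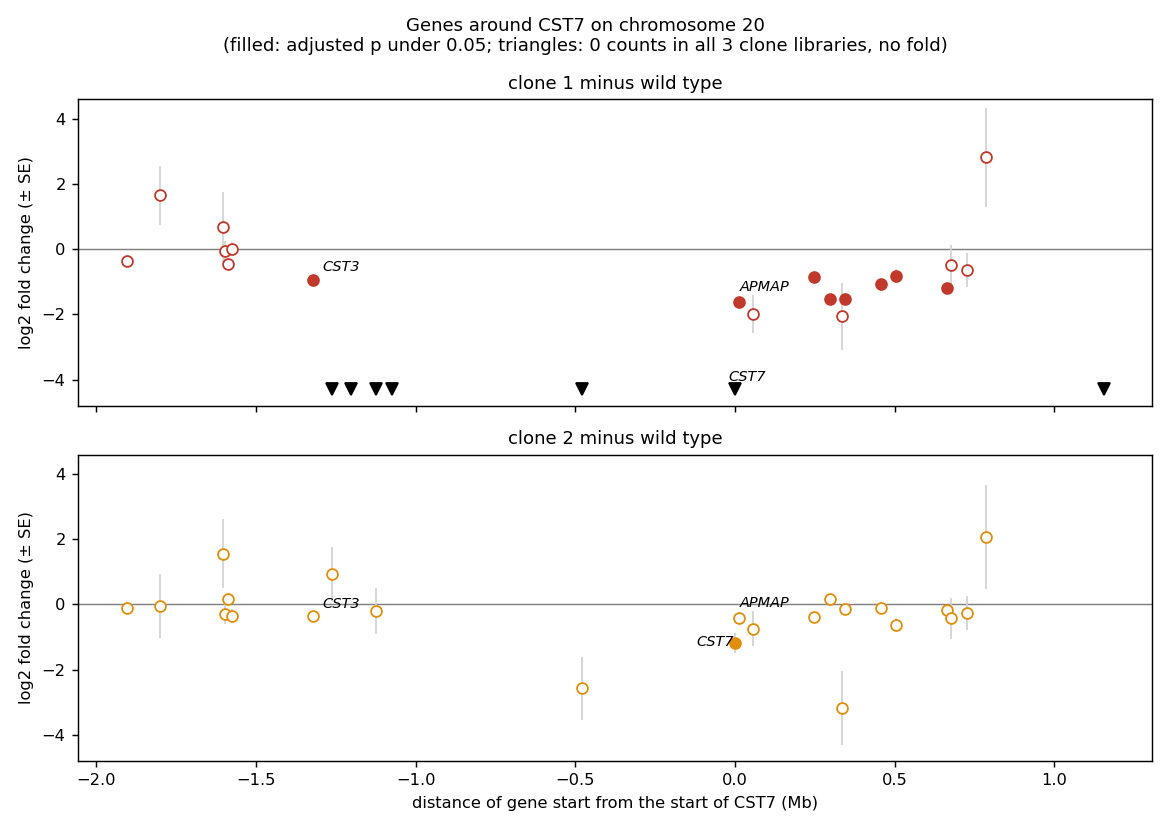
Log2 fold change (± SE) of genes with at least 10 counts against the distance of their start from the start of CST7 in Mb, for clone 1 above and clone 2 below. Filled points passed an adjusted p of 0.05 over all genes. Triangles in the upper panel mark genes at 0 in all 3 libraries of clone 1, drawn at an arbitrary height. Genes without a test are otherwise not drawn, among them RP3-410C9.2, which had 0 counts in clone 2. In clone 1 the run of triangles from CST4 to CST7 is flanked on the right by genes called lower, while in clone 2 only CST7 is filled.

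The 2 tested genes nearest to CST7 on the right were APMAP, 3.0 kb away, which encodes an adipocyte plasma membrane-associated protein, and ACSS1, 46.3 kb away, a mitochondrial acetyl-CoA synthetase. APMAP had 1183, 1054 and 908 counts in clone 1, 2576, 2169 and 2280 in clone 2, and 3968, 3414 and 3232 in wild type. In CPM, clone 1 lay below both other groups, which overlapped. It fell by 1.63 log2 units in clone 1 (SE 0.18, adjusted p = 4.55e-05, edgeR). In clone 2 the log2 fold change was -0.42 (SE 0.17, adjusted p = 0.147), and -0.44 with the replicate block (adjusted p = 0.019). ACSS1 had 8, 21 and 7 counts in clone 1, 6, 42 and 39 in clone 2, and 40, 61 and 54 in wild type, with a log2 fold change of -1.98 in clone 1 (adjusted p = 0.0568) and -0.75 in clone 2 (adjusted p = 0.426). On the left the nearest were SYNDIG1, 283 kb away, with 0 counts in clone 1, 1, 6 and 0 in clone 2, and 18, 17 and 13 in wild type, and CST2. SYNDIG1 was at least 14.5-fold lower in clone 1 than in wild type by the same floor. It passed the filter on low counts through the 3 wild-type libraries alone, so no p is given.

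Of 14 other cystatin-family genes listed, 6 had any count and 2, CST2 and CST4, were tested. CST2 (cystatin SA) had 0 counts in clone 1, 6, 24 and 8 in clone 2, and 14, 22 and 12 in wild type, which puts clone 1 at least 14.5-fold below wild type. CST4 (cystatin S) had 0 counts in clone 1, 7, 20 and 18 in clone 2, and 2, 19 and 5 in wild type. By the same floor clone 1 was at least 7.88-fold below the pooled wild-type level. That level is itself uncertain, as the wild-type libraries had 0.0971, 0.804 and 0.251 CPM. The filter's limit was reached by 3 wild-type libraries and 1 clone 2 library for CST2, by 2 clone 2 libraries and 1 wild-type library for CST4, and by no clone 1 library for either. Both genes were thus tested only because other groups had counts, and no p is given for clone 1. In clone 2 the log2 fold change was -0.20 for CST2 (SE 0.71, adjusted p = 0.896) and 0.94 for CST4 (SE 0.82, adjusted p = 0.519). CST1, CST2 and CST4 are near-identical copies, so the split of counts between them is uncertain. Their sum was 0 in clone 1, but reads shared by the copies may be missing from it, as the treatment of such reads is not given. CST1 had 0 counts in clone 1, 38 in clone 2 and 18 in wild type, and CST5 0, 2 and 10 in that order. CSTA, the cytosolic stefin A, had 0, 0 and 21 counts in clone 2 and 1, 0 and 3 in wild type, with none in clone 1. AHSG, a plasma glycoprotein of the cystatin superfamily, had 2 counts in clone 1, 1 in clone 2 and 4 in wild type.

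Of 9 other cathepsin genes, 8 had counts and were tested. None was called in clone 1 by edgeR, where 2 had an unadjusted p under 0.05 and DESeq2 called 1. CTSW is in both counts and passed the filter on low counts through the clone 1 libraries alone, so these counts are no support for it. In clone 2, 1 of 8 was called lower, beside 2.75% of all genes. That was CTSS, the endopeptidase of antigen-presenting cells, with 27, 65 and 27 counts in clone 1, 6, 13 and 7 in clone 2, and 43, 57 and 36 in wild type. It fell by 2.22 log2 units in clone 2 (SE 0.49, adjusted p = 0.0175) and was no longer called when clone 2 replicate 3 or wild-type replicate 1 or 2 was left out (adjusted p up to 0.0853), and had a log2 fold change of -0.07 in clone 1 (SE 0.44, adjusted p = 0.946). The monocyte marker CD14 averaged 1.09 CPM in clone 1, 0.318 in clone 2 and 2.49 in wild type. Unlike CTSS, its mean was thus lower than wild type in clone 1 as well. CSF1R, on the same list, ran the other way in clone 2, with 6.31 CPM in clone 1, 4.48 in clone 2 and 3.92 in wild type. The other leukocyte markers averaged under 1 CPM in every group. The part of such markers in the CTSS result was not tested.

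CTSK, the collagenolytic cathepsin of osteoclasts, had 32, 54 and 48 counts in clone 1, 12, 23 and 17 in clone 2, and 50, 58 and 29 in wild type. Its log2 fold change was 0.12 in clone 1 (SE 0.39, adjusted p = 0.889) and -1.24 in clone 2 (SE 0.42, adjusted p = 0.0838). CTSK and CTSO, a papain-like protease, were lower in clone 2 than in clone 1 by edgeR, with log2 differences of -1.36 for CTSK (adjusted p = 0.0198) and -1.42 for CTSO (adjusted p = 0.0383). The CTSK call ended when clone 1 replicate 2 or 3 or clone 2 replicate 3 was left out (up to 0.0757), and the CTSO call when replicate 2 or 3 of either clone was (up to 0.163). CTSS, too, was lower in clone 2 than in clone 1 (-2.15, SE 0.50, adjusted p = 0.00388). LUM, a fibroblast marker on the same list as the osteoclast marker ACP5, averaged 9.83 CPM in clone 1, 0.44 in clone 2 and 13.5 in wild type. ACP5 had 0 counts in both clones and 4 in wild type. The other markers of that list did not repeat LUM. DCN had 4 counts in clone 1, 0 in clone 2 and 50 in wild type, and PDGFRA 5, 6 and 15 in that order. The part of such markers in the CTSK and CTSO results was not tested.

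CTSA, the serine carboxypeptidase that protects lysosomal sialidase, had 2436, 2568 and 2266 counts in clone 1, 3746, 3405 and 3405 in clone 2, and 3408, 3635 and 2916 in wild type. Its log2 fold change was -0.32 in clone 1 (SE 0.15, adjusted p = 0.24) and 0.26 in clone 2 (SE 0.15, adjusted p = 0.313). Clone 2 exceeded clone 1 by 0.58 (SE 0.15, adjusted p = 0.00903, edgeR), and this was called under all 17 alternative settings. CTSW, a leukocyte cathepsin, had 29, 14 and 18 counts in clone 1, 8, 2 and 4 in clone 2, and 2, 8 and 2 in wild type. The fitted log2 fold change in clone 1 was 2.49 (SE 0.80). CTSW passed the filter through the 3 clone 1 libraries alone, the group where it is high, so no p is given. CTSF, CTSH and CTSE were called in no comparison, with log2 fold changes in clone 1 of -0.38 (adjusted p = 0.261), -0.38 (adjusted p = 0.178) and 0.14 (adjusted p = 0.951) and in clone 2 of -0.09 (adjusted p = 0.821), -0.23 (adjusted p = 0.422) and 0.21 (adjusted p = 0.923).

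Genes that carry, activate or restrain cathepsins were read from lists drawn up with earlier results known. Calls in this and the following lists stand beside the shares of all genes tested. In clone 1 these were 4.10% lower and 1.41% higher, and in clone 2 they were 2.75% lower and 3.21% higher. Between the clones, 19.8% of all genes were called higher in clone 2 and 14.1% lower. No share of all genes is given for an unadjusted p under 0.05. List counts on that basis, here and above, thus cannot be set against a background. Of 15 genes for cathepsin processing and sorting, 2 were called lower in clone 1 and none higher, and none was called in clone 2, where 2 had an unadjusted p under 0.05 and DESeq2 called none. CD74, the invariant chain that cathepsins cut and whose long form binds cathepsin L, had 343, 365 and 208 counts in clone 1, 866, 534 and 561 in clone 2, and 910, 934 and 609 in wild type. It fell by 1.29 log2 units in clone 1 (SE 0.27, adjusted p = 0.0145, edgeR), or 0.0818 without clone 1 replicate 3. NAGPA, which uncovers the mannose-6-phosphate tag, fell by 0.71 in clone 1 (SE 0.17, adjusted p = 0.0258), which ended when any single clone 1 library or wild-type replicate 1 or 2 was left out (up to 0.0964). The list's median log2 fold change was -0.22 in clone 1 and -0.03 in clone 2. Between the clones 5 of the 15 were called higher in clone 2 and 1 lower.

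Of 5 tested serpins that can inhibit cathepsins or related proteases, 1 was called lower in clone 1 and none in clone 2, where none had an unadjusted p under 0.05 and DESeq2 called none. SERPINB9, the granzyme B inhibitor, had 252, 320 and 197 counts in clone 1, 381, 601 and 612 in clone 2, and 461, 852 and 647 in wild type. It fell by 1.21 log2 units in clone 1 (SE 0.19, adjusted p = 0.00215), called in all 17 alternative settings, and had a log2 fold change of -0.15 in clone 2 (SE 0.19, adjusted p = 0.664).

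Of 33 other lysosomal hydrolases tested, none was called in clone 1 by edgeR, where 4 had an unadjusted p under 0.05 and DESeq2 called 1, and 1 was called higher in clone 2, with medians of 0.04 in clone 1 and -0.04 in clone 2. In clone 2, 7 had an unadjusted p under 0.05, DESeq2 called 4, and the replicate block over all 9 libraries gave 5 calls. Over all genes tested, DESeq2 called 1818 and the block 2699 in clone 2. Between the clones 3 of the 33 were called higher in clone 2 and 5 lower. The gene called in clone 2 without the block was GM2A, the ganglioside activator, at 957, 1113 and 839 counts in clone 1, 1261, 1256 and 1398 in clone 2, and 804, 1124 and 988 in wild type, which rose by 0.59 log2 units in clone 2 (SE 0.14, adjusted p = 0.0277) and was not called without clone 2 replicate 3 or wild-type replicate 1 or 2 (up to 0.134). Of 16 lysosomal membrane genes, 1 was called higher in clone 1 and 2 lower in clone 2. The potassium channel gene TMEM175 rose by 0.67 in clone 1 (SE 0.17, adjusted p = 0.035), which ended when any single clone 1 library or wild-type replicate 2 or 3 was left out (up to 0.149). In clone 2, OSTM1, the partner of a lysosomal chloride transporter, fell by 0.47 (SE 0.13, adjusted p = 0.043) and SCARB2, the sorting receptor of glucocerebrosidase, fell by 0.48 (SE 0.13, adjusted p = 0.0437). The OSTM1 call held in 1 of 9 and the SCARB2 call in 2 of 9 fits that left out a library.

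Of 16 genes of the vacuolar proton pump, 1 was called higher and 1 lower in clone 1, and none in clone 2. In clone 2, 6 had an unadjusted p under 0.05, DESeq2 called 2 and the replicate block gave 4 calls. Over all genes tested in clone 2, DESeq2 called 1818 and the block 2699, and no count is given for the unadjusted p. ATP6V0C, of the membrane ring, fell by 0.90 in clone 1 (SE 0.22, adjusted p = 0.0279) and was not called when clone 1 replicate 1 or 3 or wild-type replicate 2 or 3 was left out (up to 0.147). The accessory subunit ATP6AP1 rose by 0.52 in clone 1 (SE 0.13, adjusted p = 0.0336), lost without any single library of clone 1 or of wild type (up to 0.151), and had a log2 fold change of -0.37 in clone 2 (adjusted p = 0.106), or -0.38 with the replicate block (adjusted p = 0.048). Between the clones 6 of the 16 were called higher in clone 2 and 2 lower.

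Of 11 tested genes that control lysosomal transcription through TFEB and mTORC1, 1 was called lower in clone 1 and none in clone 2. In clone 2, 5 had an unadjusted p under 0.05, DESeq2 called 1 and the replicate block gave 4 calls. These stand beside 1818 calls by DESeq2 and 2699 with the block over all genes tested. The unadjusted count has no such background here, so no excess is read from it. RPTOR, the scaffold of mTORC1, had 1036, 960 and 777 counts in clone 1, 1539, 1913 and 2474 in clone 2, and 1359, 1498 and 1775 in wild type. It fell by 0.62 in clone 1 (SE 0.16, adjusted p = 0.0361), lost without any single clone 1 library or wild-type replicate 3 (up to 0.233). Its log2 fold change in clone 2 was 0.48 (SE 0.16, adjusted p = 0.0801), or 0.49 with the replicate block (adjusted p = 0.0173). Between the clones 6 of the 11 were called higher in clone 2 and none lower, where 19.8% of all genes were called higher and 14.1% lower. The median was 0.61 beside -0.01 over all genes.

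The genes whose level followed that of CST7 most closely over the 9 libraries, by Pearson correlation of log2 CPM, were PLXDC2 (r = 0.984), COCH (0.979), PDE1C (0.979), NANP (0.978) and MDFIC (0.976). These correlations describe libraries in 3 groups and rest on the gap between clone 1 and the rest. PLXDC2, a plexin-domain receptor, had 3, 10 and 2 counts in clone 1, 148, 179 and 195 in clone 2, and 387, 540 and 349 in wild type, which repeats the order of CST7. COCH, which encodes cochlin, had 3, 0 and 0 counts in clone 1, 68, 85 and 72 in clone 2, and 126, 141 and 122 in wild type. NANP, a phosphatase of sialic acid synthesis, starts 664 kb from the start of CST7 on the same chromosome and had 235, 299 and 205 counts in clone 1, 432, 544 and 521 in clone 2, and 591, 667 and 592 in wild type. Among the members, the correlation with CST7 was 0.941 for CST3, 0.886 for CSTB, 0.795 for CTSD, 0.774 for CTSZ, 0.732 for CTSV, 0.645 for CTSL, 0.557 for CTSB, 0.358 for CTSC and -0.503 for CST6.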

How the data were processed

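The authors deposited raw read counts per gene in 2 tables, one for each clone, with gene coordinates and lengths per the file headers. Both tables hold the same 3 wild-type columns, which were used once, and no column was left unmapped. The tools named, per the submitters' processing notes, are STAR, featureCounts, Subread and DESeq2, with build GRCh38. Versions, annotation, strand setting and the treatment of reads shared by similar copies were not given in the sources used here. Coordinates of all 10 members equal those of GENCODE release 29.

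Counts were fitted with edgeR 4.0.16 in R 4.3.3 (TMM scaling, filterByExpr with a minimum count of 10, robust quasi-likelihood fit of 9 libraries as 3 groups, 6 residual degrees of freedom). All tests were two-sided, with Benjamini-Hochberg adjustment over the 16921 genes tested. The biological coefficient of variation was 20.3%. The scripts were tested on simulated data. The SE of a log2 fold change was its size over the square root of F. RPKM was computed as TMM-scaled CPM per kilobase of the deposited gene length. Replicates differed by a chi-square per gene of 17.42 to 61.88, so none was treated as a duplicate. Totals are given in the report, and low counts such as those of CST6 limit precision.

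Alternatives were RLE size factors, no filter, DESeq2 1.42.0, limma-voom (limma 3.58.1), the 6 libraries compared, a replicate block, a correction for GC content and length (87.3% of tested genes had a GC content) without and with the block, and leaving out each library. Replicate numbers are shared between groups. Deviations of clone 2 and wild-type libraries of the same number correlated at 0.223, 0.269 and 0.246, so these numbers were taken as pairs, from the data and not from the labels. For clone 1 and wild type they correlated at 0.245, 0.082 and -0.097, and for clone 2 and clone 1 at 0.219, -0.021 and 0.012, so those were not. With the block, 2699 genes were called in clone 2, against 1008 without it. The block was fitted to all 9 libraries, so clone 1 libraries were joined by number too, although their numbers were not taken as pairs. No blocked fit of clone 2 and wild type alone was run.

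The members and the 13 gene lists (162 entries, all matched) were chosen with earlier results of these data known. Named genes were JAG1, the 10 members, every other cystatin or cathepsin with a count, up to 4 genes per other list called in either clone by smallest adjusted p, the 5 genes most correlated with CST7 in log2 CPM (prior count 2), and the 2 nearest tested genes on each side of CST7. Promoter windows and the genes between CST3 and CST7 were described after values were seen.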

Additional observations from a re-analysis of the deposited data

Results flagged for a closer look

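For 6 members the change differed between the clones, by the contrast of clone 2 with clone 1 in edgeR's fit over all genes, and clone 2 was the higher in each. These genes were chosen with the contrasts known, so no p is given. Over all genes tested, 19.8% were called higher in clone 2 than in clone 1 and 14.1% lower. CST3 was higher in clone 2 than in clone 1 by 0.57 log2 units, CSTB by 0.38, CTSD by 0.80, CTSV by 0.70 and CTSZ by 0.93. For each, 3 of 3 clone 2 libraries lay above all clone 1 libraries, as for 25.8% of all genes tested. CTSD, CTSV and CTSZ lay below wild type in the fit for clone 1 and above it in the fit for clone 2. The fitted CST7 difference was 10.12, but it was fitted against a group at 0 and is no bound. By the floor of 3 counts CST7 was at least 138.6-fold higher in clone 2. Groups of 3 libraries were not searched for single outlying libraries.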

How the results depend on the processing

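Over 178 results and 17 alternative settings, 2857 values were compared: 2468 kept their direction and call or stayed within the limit for counts, 163 counts or medians moved further, 153 calls were lost, 44 were gained, and 29 values changed sign. Nothing below that changed was tested for its cause. Genes called in clone 1 numbered 933. They were 1512 without the filter on low counts, 1479 with DESeq2, 2322 with the replicate block, 2148 with the block and the GC and length correction, and 200 to 1301 when a library was left out. Genes called in clone 2 numbered 1008. They were 1663 without the filter, 1818 with DESeq2, 416 in the fit of the 6 libraries compared, 2699 with the replicate block, 3053 with the block and the GC and length correction, and 237 to 1584 when a library was left out. Between the clones, 5733 were called, and 3639 to 5782 when a library was left out. Members called in clone 1 (4) were 2 to 5 when a library was left out. Members called in clone 2 (2) were 4 with DESeq2, 0 in the fit of the 6 libraries compared, 4 with the block and the GC and length correction, and 0 to 1 when a library was left out. Members called between the clones (6) were 4 to 6 when a library was left out. Over the alternatives, calls in clone 1 ran from 0 to 3 for the other cystatins (2), 0 to 1 for the other cathepsins (0), 0 to 4 for processing and sorting (2), 0 to 3 for hydrolases (0), 0 to 2 for membrane genes (1), 0 to 3 for the proton pump (2) and 0 to 2 for transcription control (1). In clone 2 they ran from 0 to 2 for the other cathepsins (1), 0 to 1 for processing and sorting (0), 0 to 5 for hydrolases (1), 0 to 3 for membrane genes (2), 0 to 4 for the proton pump (0) and 0 to 5 for transcription control (0). Between the clones they ran from 0 to 4 for the other cystatins (2), 2 to 5 for the other cathepsins (4), 4 to 9 for hydrolases (8), 1 to 9 for membrane genes (7) and 5 to 12 for the proton pump (8). Each number in brackets is the count in the fit reported. CST2 and CST4, the other cystatins counted there for clone 1 and between the clones, passed the filter without any clone 1 library.

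The replicate block, where the numbers do not count as pairs, added calls for CTSD (-0.48) and ACSS1 (-2.08) in clone 1 and for CTSC (0.40) between the clones. Where they do, in clone 2, it added CTSZ (0.40), ATP6AP1 (-0.38), RPTOR (0.49), KRT8 (0.47), KRT18 (0.58) and APMAP (-0.44), and it changed no other call of the named genes with a test here. The sign changes were all in values that were not called. With limma-voom, the block, and the block with the GC and length correction, CTSE was -0.12, -0.13 and -0.07 in clone 2 and -0.20, -0.19 and -0.16 between the clones. ATP6V0C in clone 2 was 0.09 with the GC and length correction and 0.10 with the block added. When a library was left out, log2 fold changes in clone 1 ran from -0.52 to 0.76 for CTSE, -0.07 to 0.30 for CTSK and -0.52 to 0.13 for CTSS. In clone 2 they ran from -0.98 to 0.07 for CST2, -1.36 to 0.79 for CTSE, -0.31 to 0.07 for CTSF, -0.31 to 1.27 for CTSW, -0.52 to 0.04 for CD74, -0.02 to 0.21 for NAGPA and -0.06 to 0.22 for TMEM175. Between the clones CTSE ran from -1.52 to 0.74. Counts under about 30 per library, as for CST6, CTSE, CTSW and the small cystatins, limit what can be seen.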
